A study of Homo sapiens with 12 samples.

Results

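CSF1, CSF2 and CSF3, the genes of the colony-stimulating factors, were followed in MDA-MB-231 cells stimulated with PMA/Ionomycin, and were 3 of the 24331 features in the deposited expression table. They were taken by symbol, and each symbol matched 1 feature. MDA-MB-231 is a human breast cancer cell line that lacks the hormone receptors. PMA is a phorbol ester that activates protein kinase C, and Ionomycin is an ionophore that raises cytosolic calcium. WT cells and CRE-deleted cells (ΔCRE, labelled KO) were collected unstimulated (0 h) and after 6 h and 24 h, with 2 biological replicates in each of the 6 conditions and 12 libraries in all. CRE is the core-regulatory element upstream of ETS1, and in ΔCRE cells its stretch with NFAT and NF-κB sites was removed with Cas9 and a pair of guides. The number of clones behind the ΔCRE libraries is not given in the sources used here, so the deletion and a clone cannot be told apart.

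The 3 factors are secreted proteins that drive myeloid cells. CSF1 (M-CSF) keeps monocytes and macrophages alive and maturing through the receptor tyrosine kinase CSF1R, which also binds IL34. CSF2 (GM-CSF) acts through CSF2RA and the chain CSF2RB that the receptors for IL3 and IL5 share, and CSF3 (G-CSF) acts on the neutrophil lineage through CSF3R. The latter pair of receptors signals through JAK kinases and STAT factors. PMA with an ionophore is a textbook way to turn on CSF2 in T cells, where NFAT, AP-1, NF-κB and ETS factors act on its promoter. The mRNAs of CSF2 and CSF3 carry AU-rich elements that mark them for rapid decay.

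All 3 genes lie on the plus strand of hg19. CSF1 (feature XLOC_000574) spans chr1:110453233-110473616, and its canonical transcript in GENCODE has 9 exons and 3994 bases. CSF2 (XLOC_017308) spans chr5:131409485-131411863, with a single annotated transcript of 4 exons and 788 bases. CSF3 (XLOC_009040) spans chr17:38171614-38174066, with 5 exons and 1504 bases in the canonical transcript. CSF1 and CSF3 have 9 annotated transcripts each, which values per gene do not separate.

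CSF2 had the widest range of the 3, and its proximal promoter is shown as the place where the factors measured in the same libraries are known to act. The sequence is from RefSeq on GRCh38.p14, plus strand, chr5:132073539-132073788, the 250 bases before the annotated start of transcription. The same letters occur once on chromosome 5 of GRCh37, from 131409232 to 131409481. Capitals mark matches to the NFAT core (GGAAA) and to an NF-κB motif (3 G, then 5 bases of any kind, then 2 C), on either strand.
CSF2: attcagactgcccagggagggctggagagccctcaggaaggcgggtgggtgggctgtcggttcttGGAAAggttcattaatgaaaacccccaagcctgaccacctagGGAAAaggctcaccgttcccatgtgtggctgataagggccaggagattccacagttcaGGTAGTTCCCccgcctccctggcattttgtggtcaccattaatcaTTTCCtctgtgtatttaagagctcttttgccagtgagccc
The NFAT core matched 3 times, at -185 and -143 from the start on the plus strand and at -40 on the minus strand. The NF-κB motif matched 1 time, from -85 to -76 on the minus strand. The ETS core GGAA, which is contained in GGAAA, matched 7 times, of which 1 lay inside the NF-κB match, and the AP-1 motif TGANTCA had no match in this window. Among 35116 promoters of the same length, 55.6% held the NFAT core, 92.7% the ETS core, 54.4% the NF-κB motif and 6.57% the AP-1 motif, with medians of 1, 3, 1 and 0 matches. These are descriptions of letters, not of binding. Promoter sequences were matched for 1 of the 3 genes, and those of CSF1 and CSF3 are not shown.

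Values are FPKM, fragments scaled by the authors to transcript length and library size, so levels of different genes can be set side by side. The absolute depth is unknown. From the steps between low values, the depth relative to the first WT 0 h library was 0.730 and 0.820 in the ΔCRE 6 h libraries and between 0.957 and 1.19 in the other libraries, apart from 0.832 in the library labelled ΔCRE 0 h replicate 1. That library stood apart as a whole, and its FPKM values summed to 1.42e+06, against 566255 to 651080 in the others. Its r with replicate 2 on log2(FPKM + 1) was 0.867, against 0.981 to 0.987 between the replicates of the other conditions. EPCAM, an epithelial surface protein, was at 1139 FPKM there and at most 3.38 FPKM in the other 11. The 6 leukocyte markers without CD68 summed to 387 FPKM there and to between 0.357 and 0.819 FPKM in the other 11, where CD3E was listed at 0. It is therefore shown apart and was left out of the fit. In the 11 libraries, 6 mesenchymal markers of the line, led by VIM, summed to between 2165 and 3372 FPKM, and ESR1, PGR and CDH1 were at or near 0. ETS1, the gene next to the deleted element, was at 23.8, 142 and 37.9 FPKM in WT cells at 0, 6 and 24 h. The ΔCRE levels were 16.5 FPKM at 0 h (replicate 2), 62.5 FPKM at 6 h and 30.0 FPKM at 24 h, with a log2 difference from WT of -1.17 at 6 h (limma, adjusted p = 1.2e-05, and 0.623 with all 12 libraries).

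CSF1 had the highest level of the 3 in unstimulated WT cells. Its expression was 15.1 and 15.1 FPKM in the WT libraries at 0 h, 302 and 286 FPKM at 6 h, and 94.7 and 90.9 FPKM at 24 h. ΔCRE libraries had 16.1 FPKM at 0 h (replicate 2), 253 and 246 FPKM at 6 h, and 65.0 and 61.1 FPKM at 24 h. Libraries of different time points did not overlap in either genotype, and the ΔCRE pair lay below the WT pair at 6 h and again at 24 h. The library labelled ΔCRE 0 h replicate 1 had 10.0 FPKM. By level, CSF1 was at places 4708 and 4765 among all features in the WT 0 h libraries and at places 295 and 313 at 6 h.

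CSF2 was low at rest and the highest of the 3 at 6 h. Its expression was 1.61 and 2.18 FPKM in WT cells at 0 h, 540.2 and 522 FPKM at 6 h, and 16.1 and 13.9 FPKM at 24 h. ΔCRE cells had 2.36 FPKM at 0 h (replicate 2), 527 and 529 FPKM at 6 h, and 21.2 and 17.8 FPKM at 24 h. The ΔCRE and WT libraries overlapped at 6 h, and both ΔCRE libraries lay above both WT libraries at 24 h. In the library labelled ΔCRE 0 h replicate 1 it was 1.91 FPKM, within the FPKM range of the other unstimulated libraries. After scaling to a common total it lay below them, since the FPKM of that library sum higher. By rank among all features it went from places 9931 and 10390 in WT cells at 0 h to place 169 in both libraries at 6 h, and back to places 4492 and 5008 at 24 h.

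CSF3 was low throughout. It was listed at 0 in both WT libraries at 0 h, at 2.13 and 2.34 FPKM at 6 h, and at 1.12 and 0.743 FPKM at 24 h. ΔCRE cells had 0.0379 FPKM at 0 h (replicate 2), 1.14 and 1.04 FPKM at 6 h, and 0.698 and 1.16 FPKM at 24 h. At 6 h the ΔCRE pair lay below the WT pair, and the genotypes overlapped at 24 h. The value of ΔCRE 0 h replicate 1 was 0.106 FPKM. After scaling for relative depth, the WT 6 h values were 50.2 and 56.2 times the lowest CSF3 value above 0, and the ΔCRE 6 h values were 18.9 and 19.4 times that value. If that lowest value is 1 fragment, about 16 to 56 fragments stood behind the value of each stimulated library and at most about 2 at 0 h.

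**Figure D1:**
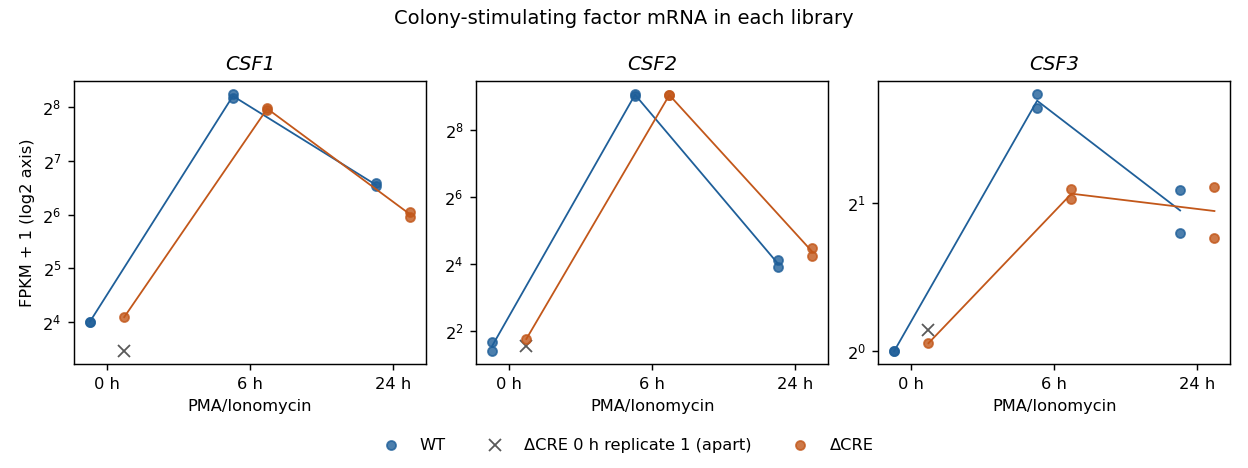
Expression of CSF1, CSF2 and CSF3 in each library as FPKM + 1 on a log2 axis, against hours of PMA/Ionomycin, with lines joining the means of WT and of ΔCRE cells and a cross for the library labelled ΔCRE 0 h replicate 1, which enters no mean. CSF2 rises from between 1.61 and 2.36 FPKM to between 522 and 540.2 FPKM at 6 h and falls to between 13.9 and 21.2 FPKM at 24 h, while CSF1 keeps between 61.1 and 94.7 FPKM at 24 h.

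The order of the 3 genes changed with stimulation. At 0 h the mean of CSF1 in WT cells was 7.96 times that of CSF2. At 6 h CSF2 exceeded CSF1 in all 4 libraries, with a CSF2 to CSF1 ratio of 1.79 and 1.83 in WT cells and 2.08 and 2.15 in ΔCRE cells. By 24 h CSF1 was again the higher of the 2 genes, with ratios of 0.170 and 0.152 in WT cells and 0.326 and 0.292 in ΔCRE cells. The ΔCRE ratios lay above the WT ratios at both times, a description with no test. CSF3 was the lowest of the 3 in every library.

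The question of the first comparison was how stimulation moved the 3 genes in WT cells. Differences were tested on log2(FPKM + 1) with limma over 11749 features in 11 libraries, and p-values were adjusted over all features by the Benjamini-Hochberg method. On this scale the change of a low gene is understated. All 3 genes rose from 0 to 6 h, against 22.9% of all features tested, while 21.4% fell. CSF3 passed the filter on low values through its stimulated libraries, so the count of 3 and its own difference from 0 h are descriptions. The mean of CSF2 rose 280.4-fold, from 1.89 ± 0.403 to 531 ± 12.8 FPKM (SD, n = 2), a log2 difference of 7.53 (SE 0.11, 95% interval 7.28 to 7.78, limma, adjusted p = 2.1e-10) and the 5th highest of all features. CSF1 rose 19.5-fold, from 15.1 ± 0.0253 to 294 ± 11.5 FPKM (SD, n = 2), with a log2 difference of 4.20 (95% interval 4.07 to 4.32, limma, adjusted p = 9e-11) at place 21. CSF3 rose by 1.69 on the log2(FPKM + 1) scale (95% interval 1.38 to 2.002), to 2.23 ± 0.148 FPKM (SD, n = 2), and no fold is given against a group listed at 0.

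At 24 h all 3 genes were still higher than at 0 h, as were 27.0% of all features. CSF1 stood 6.15-fold above its level at 0 h, a log2 difference of 2.54 (95% interval 2.42 to 2.67, limma, adjusted p = 7.1e-09). For CSF2 the mean was 7.92-fold higher, a difference of 2.47 (2.22 to 2.72, adjusted p = 4.5e-07, limma). CSF3 differed by 0.94 (0.63 to 1.25). It passed the filter through its stimulated libraries, so this difference and the count of 3 are descriptions.

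Between 6 and 24 h the 3 genes fell in WT cells, and CSF2 kept the smallest share of its level at 6 h. Lower at 24 h than at 6 h were 25.8% of all features and all 3 genes, and 21.6% of features were higher. CSF2 at 24 h kept 2.82% of its mean at 6 h, a log2 difference of -5.06 (95% interval -5.31 to -4.81, limma, adjusted p = 2.1e-08) and the 6th lowest of all features. CSF1 kept 31.6%, a difference of -1.65 (-1.78 to -1.52, limma, adjusted p = 1.5e-07), and CSF3 kept 41.8%, a difference of -0.75 (-1.06 to -0.44, limma, adjusted p = 0.0021). The 3 comparisons in WT cells share libraries, so their values are not independent of each other. The spread of CSF3 at 24 h, 0.933 ± 0.269 FPKM (SD, n = 2), was the widest of its conditions in WT cells.

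How the calls split over all features depended on the scale of the libraries. Of the 5206 features that changed from 0 to 6 h, 51.7% were higher, and 34.4% after each library was rescaled to a common total (TPM), which moved the median of all features from -0.01 to -0.12. From 6 to 24 h, 45.5% of the calls in WT cells were higher, and 66.1% in TPM; in ΔCRE cells the shares were 46.4% and 62.7%. CSF1, CSF2 and CSF3 kept the direction of each of these time changes on both scales.

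In ΔCRE cells the same fall from 6 to 24 h was seen for CSF1 and CSF2 and did not pass for CSF3. Lower at 24 h were 26.8% of all features and 2 of the 3 genes, and 23.2% of features were higher. CSF2 kept 3.69% of its level at 6 h, a log2 difference of -4.69 (95% interval -4.95 to -4.44, limma, adjusted p = 2.4e-08). CSF1 kept 25.3%, a difference of -1.97 (-2.09 to -1.84, limma, adjusted p = 6.4e-08). For CSF3 the mean at 24 h was 85.0% of that at 6 h, a difference of -0.13 (-0.44 to 0.18, limma, adjusted p = 0.469). The rise from 0 h has no test in ΔCRE cells, where 1 library at 0 h is left; against that library the means at 6 h were 15.5-fold higher for CSF1 and 223.7-fold higher for CSF2.

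The second question was whether cells without the element differed from WT cells at the same time. At 6 h CSF1 and CSF3 were lower in ΔCRE cells, and the difference of CSF2 did not pass. Lower at 6 h were 6.07% of all features and 2 of the 3 genes, and 3.44% of features were higher. CSF3 was at 1.09 ± 0.0683 FPKM against 2.23 ± 0.148 in WT cells (SD, n = 2), or 48.9% of WT, a log2 difference of -0.63 (SE 0.14, 95% interval -0.94 to -0.32, limma, adjusted p = 0.0222). CSF1 was at 249 ± 5.24 FPKM against 294 ± 11.5 FPKM (SD, n = 2), or 84.9% of WT, a difference of -0.23 (SE 0.056, -0.36 to -0.11, limma, adjusted p = 0.0311). CSF2 was at 528 ± 1.21 FPKM against 531 ± 12.8 FPKM (SD, n = 2), with a difference of -0.01 (-0.26 to 0.24, limma, adjusted p = 0.975). Neither of the lower calls at 6 h was firm. Leaving out any 1 of the 4 libraries at 6 h lost the call of CSF1 (adjusted p from 0.0792 to 0.214) and that of CSF3 (0.0716 to 0.124), and leaving out either WT 24 h library also lost that of CSF1 (0.0521 and 0.0524). With all 12 libraries the adjusted p was 1 for CSF1 and 0.296 for CSF3. The ΔCRE 6 h libraries were also the shallowest, and the part of depth in these differences was not tested. In bulk RNA, fewer cells that make a transcript and less of it per cell cannot be told apart.

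At 24 h the difference in CSF1 was larger. CSF1 was at 63.0 ± 2.76 FPKM in ΔCRE cells and at 92.8 ± 2.69 FPKM in WT cells (SD, n = 2), or 67.9% of WT, a log2 difference of -0.55 (95% interval -0.68 to -0.43, limma, adjusted p = 0.00096). It was 1 of the 3 genes, and 4.01% of all features were lower and 2.39% higher, so that 37.4% of the 752 calls were higher (25.4% in TPM). With all 12 libraries in the fit the same difference had an adjusted p of 0.816. CSF2 was at 19.5 ± 2.38 FPKM against 15.0 ± 1.62 FPKM (SD, n = 2), 129.9% of WT, and its difference of 0.36 (0.10 to 0.61) had an adjusted p of 0.103 with limma. CSF3 was at 0.928 ± 0.325 FPKM against 0.933 ± 0.269 FPKM (SD, n = 2), a difference of -0.01 (-0.32 to 0.30, limma, adjusted p = 0.99).

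Whether the change from 6 to 24 h itself differed between genotypes was tested as an interaction. None of the 3 genes passed with limma, and 0.213% of all features did. All 3 had an unadjusted p under 0.05, as had 823 of the 11749 features (7%). In TPM 2 of the 3 had one, against 7.06% of all features. With all 12 libraries 1 of the 3 had one, against 0.828% of all features. The interaction was -0.32 for CSF1 (95% interval -0.49 to -0.14, limma, adjusted p = 0.319), 0.36 for CSF2 (0.01 to 0.72, adjusted p = 0.708, limma) and 0.62 for CSF3 (0.18 to 1.06, adjusted p = 0.513, limma). The larger CSF1 deficit at 24 h and the CSF3 deficit at 6 h are therefore not shown to differ from those at the other time.

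**Figure D2:**
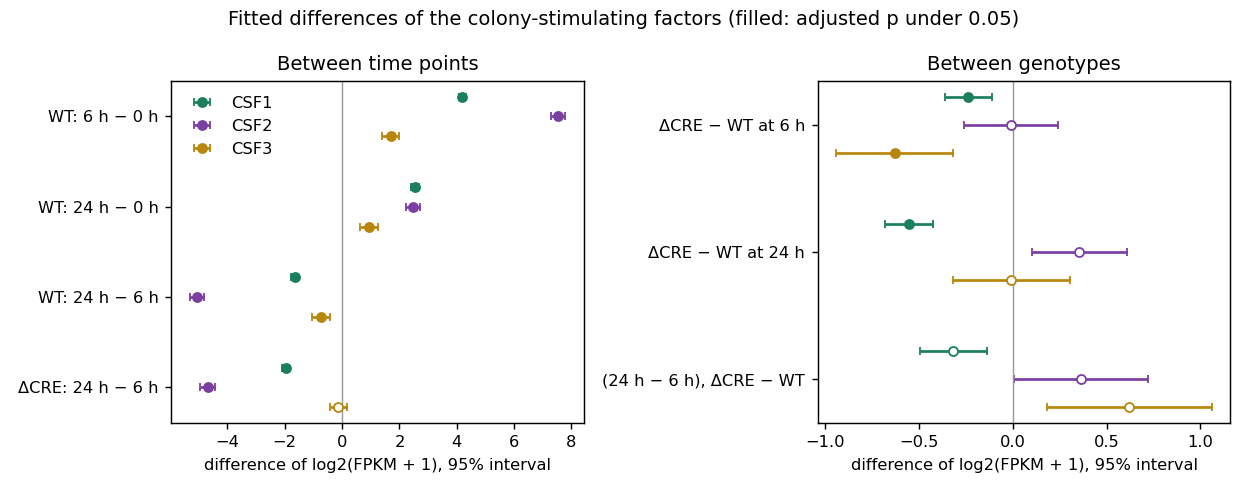
Fitted differences of log2(FPKM + 1) with 95% intervals for CSF1, CSF2 and CSF3 in each comparison, filled where the adjusted p was under 0.05. The time changes in WT cells are all filled, those of CSF3 against 0 h being descriptions. Between genotypes CSF1 is filled at 6 h (-0.23) and 24 h (-0.55) and CSF3 at 6 h (-0.63).

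Of the receptors for the 3 factors, those with a usable value were low. CSF2RB reached at most 0.0308 FPKM, and CSF3R was listed at 0 in 11 libraries. IL3, IL5 and IL5RA were listed at 0 in all 12 libraries. CSF2RA, the binding chain for CSF2, and IL3RA give no level, since each is listed on both X and Y, and all 20 symbols listed on both chromosomes were at 0 in all 12 libraries, among them the widely expressed CD99 and SLC25A6. IL34, the other ligand of CSF1R, was at most 0.217 FPKM. CSF1R was the 1 of the 9 genes on this list that passed the filter, and only through its 24 h libraries, so its values are a description with no test. In WT cells it was at 0.719 and 0.548 FPKM at 0 h, 0.534 and 0.396 FPKM at 6 h, and 0.947 and 1.04 FPKM at 24 h. ΔCRE cells had 0.749 FPKM at 0 h (replicate 2), 0.328 and 0.292 FPKM at 6 h, and 1.67 and 1.61 FPKM at 24 h. Its 24 h libraries were the highest in both genotypes, and at 24 h both ΔCRE libraries lay above both WT libraries. CD68, a lysosomal protein abundant in macrophages, was higher in WT cells at 24 h than at 0 h by 1.55 (limma, adjusted p = 4.6e-06), while the summed leukocyte markers without CD68 stayed between 0.357 and 0.819 FPKM. At 6 h CD68 was lower in ΔCRE cells than in WT cells by 0.494. Both calls of CD68 were lost with all 12 libraries.

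Of 13 genes that signal below the receptors, 12 were tested. From 0 to 6 h, 6 rose and 3 fell (22.9% and 21.4% of all features did), with a median log2 difference of 0.34 against -0.01 over all features. CISH, 1 of those that rose, was under 1 FPKM in every 0 h library of the fit. It passed the filter through stimulated libraries, so the count of 6 and the median are descriptions. STAT5A, a STAT factor activated by the CSF2 receptor, rose from 2.40 to 14.4 FPKM (log2 difference 2.18, limma, adjusted p = 5.5e-08) and fell by 1.45 from 6 to 24 h. SOCS3, a feedback inhibitor that binds the CSF3 receptor, fell by 1.23 at 6 h and was 1.18 lower than at 0 h at 24 h. PTPN6, a phosphatase of myeloid receptors, rose by 1.30 from 6 to 24 h in WT cells and by 1.57 in ΔCRE cells. Between genotypes, STAT5A and STAT3 were lower in ΔCRE cells at 6 h, and STAT5A was lower at 24 h, against 6.07% and 4.01% of all features. STAT5A was at 6.98 and 6.55 FPKM in ΔCRE cells at 6 h against 14.3 and 14.5 FPKM in WT cells, a log2 difference of -0.99 (limma, adjusted p = 0.00011), and STAT3 differed by -0.32 (limma, adjusted p = 0.0154). At 24 h the STAT5A difference was -0.71 (limma, adjusted p = 0.00103). These genotype calls were named after their values were seen. With all 12 libraries in the fit 3 of the 12 rose and 1 fell from 0 to 6 h, against 5.39% and 2.53% of all features, and PTPN6 from 6 to 24 h no longer passed (limma, adjusted p = 0.231 and 0.131). No gene on the list passed with limma between genotypes in that fit. There 2 at 6 h and 1 at 24 h had an unadjusted p under 0.05, against 5.26% and 4.07% of all features.

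Of 25 transcription factors known to act on promoters of this family, 23 were tested. From 0 to 6 h, 10 rose and 5 fell, against 22.9% and 21.4% of all features. The NF-κB subunits RELB (3.91), NFKB2 (3.41) and NFKB1 (1.72) rose, as did the AP-1 subunits JUNB (2.61) and FOSL1 (2.16), ETS1 (2.53), CEBPB (2.27) and NFATC2 (1.03), in log2 differences. RELB went from 1.92 to 42.9 FPKM and FOSL1 from 102 to 459 FPKM. At 24 h, RELB (2.98), NFKB2 (2.44), JUNB (2.36) and CEBPB (1.72) were still higher than at 0 h by more than 1, while FOSL2 (-1.05) and RUNX1 (-1.01) were lower. From 6 to 24 h, 14 fell and 4 rose in WT cells, against 25.8% and 21.6% of all features, and ETS1 (-1.88), FOSL1 (-1.40) and NFKB1 (-1.03) fell the most. In ΔCRE cells 12 fell and 3 rose, against 26.8% and 23.2%. When all 12 libraries were fitted, 9 of 24 rose and 2 fell from 0 to 6 h, against 5.39% and 2.53% of all features. From 6 to 24 h 4 fell in WT cells, 5 fell in ΔCRE cells and none rose with limma, where 2.99% and 4.29% of all features fell.

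Between genotypes at 6 h, 4 of the 23 factors were lower in ΔCRE cells and 1 was higher, against 6.07% and 3.44% of all features. Apart from ETS1, the lower ones were NFATC2 (-0.84), CEBPD (-0.75) and FOSL2 (-0.31), and ELF1 (0.29) was higher, in log2 differences with adjusted p between 0.00064 and 0.0426 (limma). NFATC2, a calcium-driven factor, was at 2.56 FPKM against 5.35 FPKM in WT cells. The call of ELF1 was lost in TPM and with quantile normalization (limma, adjusted p = 0.0633 and 0.0578), and with all 12 libraries only that of NFATC2 was kept (0.0432). At 24 h the 4 lower factors were NFATC2 (-0.45), NFKB2 (-0.38), ETS1 (-0.33) and FOSL2 (-0.28), with none higher, against 4.01% and 2.39% of all features. None of 24 passed at 24 h with limma when all 12 libraries were fitted. In that fit 4 had an unadjusted p under 0.05, against 4.07% of all features. These genes were named after their values were seen, except ETS1. Their part in the lower CSF1 and CSF3 of the same libraries was not tested.

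Proteins that bind AU-rich and stem-loop elements of short-lived mRNAs include several that act on colony-stimulating factor transcripts, and all 11 were tested. From 0 to 6 h, 3 rose and 2 fell, shares near the 22.9% and 21.4% of all features. With all 12 libraries 1 rose (ZC3H12A) and none fell with limma, against 5.39% and 2.53% of all features. In that fit 2 had an unadjusted p under 0.05, against 21% of all features. ZC3H12A, an endonuclease of cytokine mRNAs, rose from 2.17 to 10.7 FPKM (log2 difference 1.88), and ZFP36 (tristetraprolin), which promotes the decay of CSF2 mRNA, rose from 3.08 to 13.2 FPKM (1.80, limma, adjusted p = 0.197 with all 12 libraries). Both were still above their level at 0 h at 24 h, by 1.59 and 1.48, and their part in the levels of CSF2 was not tested. From 6 to 24 h, 8 of the 11 fell in WT cells and none rose, against 25.8% and 21.6% of all features. In TPM 4 fell and none rose, against 15% and 29.2%. With all 12 libraries none passed with limma, where 2.99% of all features fell and 3.07% rose. In that fit 2 had an unadjusted p under 0.05, against 20.2% of all features. ZFP36L2, a relative of ZFP36, was 1.04 lower at 24 h than at 0 h. Between genotypes, at 6 h ZFP36L2 (0.39) was higher and RC3H2 (-0.42) lower in ΔCRE cells, against 3.44% and 6.07% of all features. At 24 h TIAL1 (-0.28) was lower, against 4.01% of all features. These genes were named after their values were seen. The calls of RC3H2 and TIAL1 were lost in TPM (limma, adjusted p = 0.0609 and 0.0613). With all 12 libraries none of the 11 passed with limma at 6 or 24 h. In that fit 1 and 2 had an unadjusted p under 0.05, against 5.26% and 4.07% of all features.

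Other cytokines that stimulated cells make also rose. Of 15 on the list 14 were tested, and all 14 rose from 0 to 6 h, with a median log2 difference of 3.51, against 22.9% of all features. Of these, 8 were under 1 FPKM in every 0 h library of the fit and passed the filter through stimulated libraries, so count and median are a description. IL8, a neutrophil chemokine, rose by 9.25, IL1B by 6.72, CCL20 by 6.47, CXCL1 by 5.04, CCL2 by 4.57 and CXCL2 by 3.94. On the log2(FPKM + 1) scale CSF2, at 7.53, lay between IL8 and IL1B, and CSF1, at 4.20, between CCL2 and CXCL2. That order depends on the added 1, which understates the rise of genes lowest at 0 h. In WT means IL1B went from 0.595 to 167 FPKM and CXCL2 from 0.798 to 26.6 FPKM, so their places by fold of FPKM can differ. From 6 to 24 h, 11 of the 14 fell and 3 (IL1A, IL1B and VEGFA) rose in WT cells, against 25.8% and 21.6% of all features. IL1A reached 1 FPKM only at 24 h and passed the filter through those libraries, so its rise and the count of 3 are descriptions. CSF2 changed by -5.06, CCL20 by -3.72, IL8 by -3.54, CCL2 by -2.65 and IL11 by -2.19, so the fall of CSF2 was the deepest of these cytokines, with no test between genes. Between genotypes at 6 h, 4 were lower and 1 higher in ΔCRE cells, against 6.07% and 3.44% of all features, with IL1B at -1.72 and IL24 at -1.10. At 24 h, 4 were lower and 3 higher, against 4.01% and 2.39%, and CXCL1 (-1.25) differed the most. With all 12 libraries in the fit, 13 of the 14 cytokines rose from 0 to 6 h, against 5.39% of all features. From 6 to 24 h in WT cells 7 fell and 2 rose in that fit, against 2.99% and 3.07%. Between genotypes that fit kept 2 lower and no higher call at 6 h (IL1B and IL24, limma, with 3 of 14 at an unadjusted p under 0.05) and no lower and 1 higher call at 24 h (IL11, limma, with 5 of 14), so the call of CXCL1 was lost (adjusted p = 0.48). Of all features, 0.211% were lower at 6 h and 0.076% higher at 24 h in that fit. An unadjusted p under 0.05 was held by 5.26% of all features at 6 h and 4.07% at 24 h. No gene called on these lists changed direction when libraries were rescaled to TPM or quantile normalized.

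**Figure D3:**
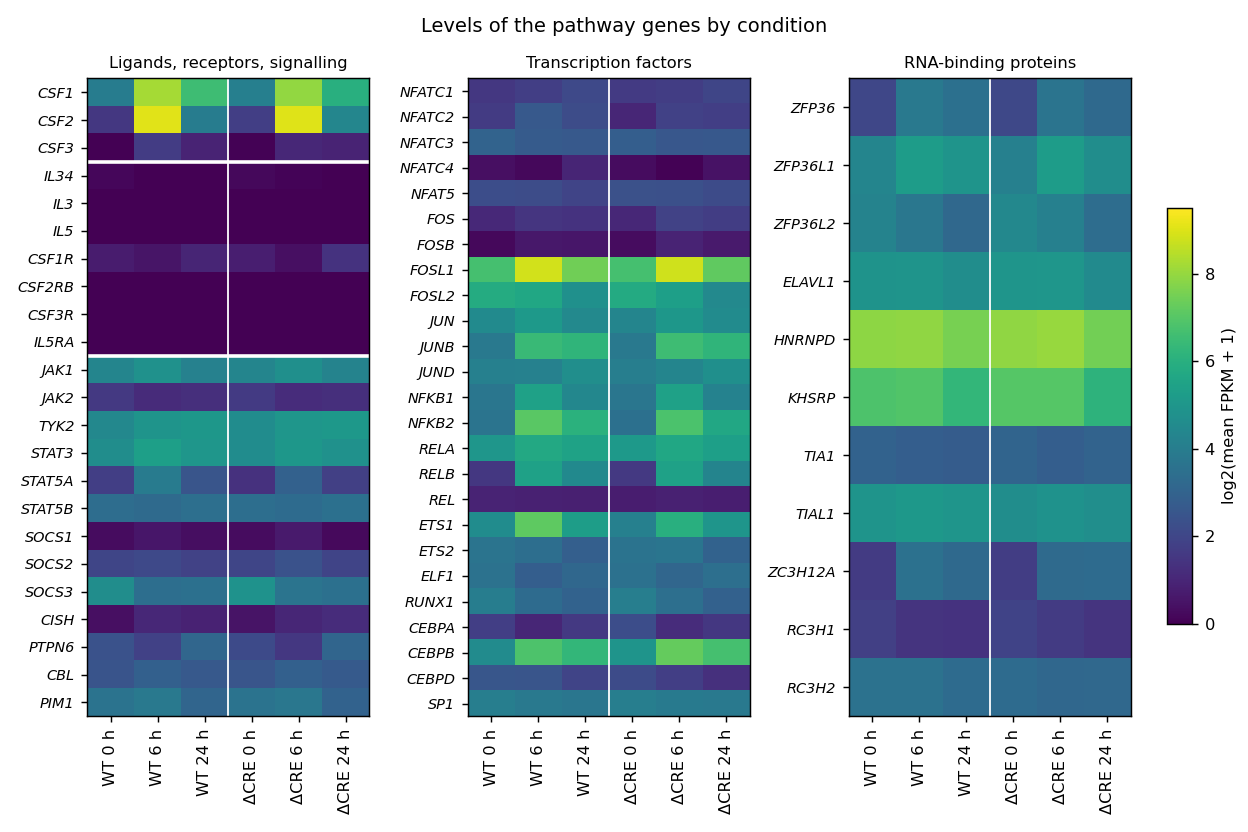
Mean log2(FPKM + 1) of the colony-stimulating factors, their receptors and related ligands (without CSF2RA and IL3RA), signalling genes, transcription factors and RNA-binding proteins in the 6 conditions as a heat map, where ΔCRE 0 h is replicate 2 alone. CSF2 goes from 1.89 to 531 and 15.0 FPKM in WT cells, the receptors shown other than CSF1R are near 0 in all conditions, and at 6 h STAT5A and ETS1 are lower in the ΔCRE column than in the WT column.

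The genes whose pattern was most like each member were sought by Pearson's r of log2(FPKM + 1) over the 11 libraries, among 1567 features whose condition means differed by at least 1 on that scale. The 11 points share the same 6 conditions, and r is a description with no test. For CSF1 they were IL8 (0.997), TNIP1 (0.995), ICAM1 (0.995), CLDN1 (0.994) and SLC2A6 (0.993). ICAM1, an adhesion molecule, went from 1.73 to 258 and 50.1 FPKM in WT cells at 0, 6 and 24 h. For CSF2 they were BIRC3 (0.997), DNAJB11 (0.995), C15orf48 (0.995), PPP1R15A (0.995) and HERPUD1 (0.994). BIRC3, an inhibitor of apoptosis, went from 0.349 to 49.0 and 4.33 FPKM in WT cells, and DNAJB11, HERPUD1 and PPP1R15A are genes of the stress response to unfolded proteins. A high r does not mean a change of like size: DNAJB11 went from 72.0 to 144 and 93.4 FPKM and HERPUD1 from 24.1 to 85.2 and 41.0 FPKM. For CSF3 the nearest were SLC25A37 (0.976), ST3GAL1 (0.968), CDC42EP2 (0.967), IL27RA (0.966) and RND1 (0.964). Among the members themselves r was 0.959 between CSF1 and CSF2, 0.927 between CSF1 and CSF3, and 0.856 between CSF2 and CSF3.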

How the data were processed

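RNA-sequencing was performed by the authors on stranded mRNA libraries of WT and ΔCRE MDA-MB-231 cells, with an Illumina NextSeq instrument. TopHat 2.0.12 was their aligner, on the hg19 build, and Cufflinks 2.2.1 gave their values per gene. The authors deposited FPKM values (fragments scaled to transcript length and mapped fragments), 1 column per library and 24331 features. The annotation behind the features and any scaling between libraries are not given in the sources used here. Samples were grouped by the genotype, time and replicate number in their labels. The columns read as ΔCRE 0 h and 6 h replicate 2 carry a digit in place of a letter and were matched to the only label left. Where a symbol named several features, the feature of the highest mean FPKM was used.

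The deposited FPKM values were put on the log2(FPKM + 1) scale and fitted in R 4.3.3 by limma 3.58.1 (lmFit, contrasts.fit and eBayes with a trend) over 11749 features of at least 1 FPKM in at least 2 of 11 libraries, with 1 mean per condition, Benjamini-Hochberg adjustment and a threshold of 0.05. The sources call the replicates biological and do not say whether they were separate cultures, so p-values measure the spread between these libraries. The fit was tested on simulated data. Tables and plots were made with Python 3.11.15, pandas 2.3.3 and matplotlib 3.10.9. Relative depth came from same-gene ratios of values under 0.3 FPKM; it carries no absolute depth. Loci were written from position 1. Exon counts came from GENCODE for GRCh37, the same build as hg19.

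The members, the gene lists and the tests were chosen with earlier results of these data known. Named from the lists were genes with a mean of at least 1 FPKM that passed with an absolute log2 difference of at least 1, up to 6 per list and comparison (NFKB1 and NFATC2 at 6 h were beyond the 6), receptors at any level, and the 5 features most like each member; others are named as chosen after their values were seen. Alternatives were no filter, a mean of at least 1 or 5 FPKM, a pseudocount of 0.1, TPM, quantile normalization, 12 libraries, only the groups compared, eBayes without trend, the replicate number as a block, and leaving out each library in turn.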

Additional observations from a re-analysis of the deposited data

Results flagged for a closer look

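The library labelled ΔCRE 0 h replicate 1, which was left out of the fit, held FPKM values for receptors of the colony-stimulating factors above those of every other library. CSF1R was at 2.78 FPKM there, against at most 1.67 FPKM in the other 11 libraries, and CSF3R was at 2.05 FPKM, where the other 11 list it at 0. All FPKM of that library summed to 1.42e+06, against 566255 to 651080 in the others. After scaling to a common total, its CSF1R lay below both ΔCRE 24 h libraries, so only CSF3R stood above all others on both scales. In the same library the leukocyte markers without CD68 summed to 387 FPKM and EPCAM was at 1139 FPKM. Their part in the receptor values was not tested. CSF1, CSF2 and CSF3 themselves were at 10.0, 1.91 and 0.106 FPKM there. Conditions of 2 libraries were too small for a search for single outlying libraries, and no member passed the test of a difference between genotypes in the change from 6 to 24 h.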

How the results depend on the processing

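Of 427 values of the 3 genes under the alternatives, 405 kept direction and side of the threshold, 17 lost the call and 5 changed sign. All time changes that passed kept their calls under every alternative that gave a value. The filters on a mean of at least 1 or 5 FPKM dropped CSF3. The CSF1 difference between genotypes at 6 h lost its call with 12 libraries (-0.235, adjusted p = 1), with only the groups compared (-0.235, adjusted p = 0.0787), without the trend (-0.235, adjusted p = 0.0552) and when a library was left out (-0.275 to -0.195). At 24 h it was lost with 12 libraries (-0.552, adjusted p = 0.816). The CSF3 difference at 6 h lost its call with a pseudocount of 0.1 (-0.969, adjusted p = 0.0864), quantile normalization (-0.553, adjusted p = 0.0537), 12 libraries (-0.628, adjusted p = 0.296) and leaving out a library (-0.675 to -0.581). Values that had not passed changed sign for CSF2 between genotypes at 6 h when a library was left out (-0.034 to 0.016, the upper value without WT 6 h replicate 1), for CSF3 in ΔCRE cells from 6 to 24 h (-0.300 to 0.046, the upper value without ΔCRE 24 h replicate 1), and for CSF3 between genotypes at 24 h with quantile normalization (0.023) or when a library was left out (-0.180 to 0.166; 0.135 without WT 24 h replicate 1 and 0.166 without ΔCRE 24 h replicate 1).

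With 12 libraries, the features called fell from 5206 to 937 (WT 6 h against 0 h), 6420 to 1358 (24 h against 0 h), 5564 to 717 (24 h against 6 h), 5866 to 994 (ΔCRE 24 h against 6 h), 1117 to 32 (genotypes at 6 h), 752 to 21 (24 h) and 25 to 0 (interaction, limma, where 98 had an unadjusted p under 0.05). Only the groups compared gave 530, 202 and 12 for the last 3. The interaction gave 14 with no filter, 15 in TPM, 13 with quantile normalization and 9 without the trend. Leaving out a library gave 357 to 1153 at 6 h, 194 to 770 at 24 h and 2 to 25 for the interaction. With 12 libraries the means of conditions other than ΔCRE 0 h stayed the same, while the spread shared by all conditions also took in the ΔCRE 0 h pair. Apart from this and the construction of the alternatives with fewer libraries, the cause was not tested. The replicate number as a block gave 1851 calls at 6 h and 1468 at 24 h and changed no call of the 3 genes. Same-numbered libraries deviated together with a correlation from -0.079 to 0.222 over 10 pairs of conditions, so the numbers were not taken as pairs. The values of CSF3 are low, and the number of fragments behind them is unknown.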

Other observations

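Genes beside CSF2 and CSF3 on the genome were read from lists of the nearest symbols. PDLIM4, a cytoskeletal adaptor near CSF2 on chromosome 5, was at 24.0 FPKM in WT cells at 0 h, 71.9 FPKM at 6 h and 30.9 FPKM at 24 h, a log2 difference of 1.54 at 6 h (limma, adjusted p = 1.7e-06) and of -1.19 from 6 to 24 h (limma, adjusted p = 1.5e-05). P4HA2, a subunit of the enzyme that hydroxylates collagen, was at 23.4, 37.2 and 44.1 FPKM, and SLC22A4, a membrane transporter, at 2.31, 3.56 and 2.22 FPKM. All 3 tested neighbours of CSF2 were higher at 6 h, against 22.9% of all features. With all 12 libraries 2 were higher, against 5.39% of all features. IL3, which lies beside CSF2, was listed at 0 in all libraries. Of the 5 tested neighbours of CSF3, 1 was higher at 6 h (ORMDL3, 0.22) and 1 lower (THRA, -0.62), shares near the 22.9% and 21.4% of all features. The call of ORMDL3 was lost in TPM, and with all 12 libraries none of the 5 passed with limma or had an unadjusted p under 0.05. Between genotypes no neighbour of CSF2 or CSF3 passed with limma at 6 or 24 h. An unadjusted p under 0.05 was seen for 1 neighbour of CSF3 at 6 h and 1 of CSF2 at 24 h. Over all features the shares were 23.8% at 6 h and 21.2% at 24 h. The neighbours named for their small changes were chosen after their values were seen.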
